A study of Homo sapiens with 12 samples.

Results

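Transcripts whose symbols end in -AS1, -AS2 or -AS3 were examined across RNA-seq libraries of K562, an erythroleukaemia cell line derived from chronic myeloid leukaemia. Such a symbol places a transcript beside the gene whose name it carries, usually on the opposite DNA strand. Of 38272 loci in the table, 853 carried 1 such symbol alone, and these stood for 423 symbols. For each symbol the locus with the highest mean was kept, and the 382 symbols with a mean of at least 1 FPKM (fragments scaled to the length of the locus and to the size of the library) over the 12 libraries formed the set. The mean level therefore chose the transcripts and is given only as a description. Just inside the limit lay ADAMTSL4-AS1 at 1.06, DOCK9-AS2 at 1.05 and GAS5-AS1 at 1.03 FPKM. Just outside it lay ZNF350-AS1 at 0.98, ZNF295-AS1 at 0.962 and TMPO-AS1 at 0.953 FPKM.

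Every culture was transfected. The labels give 4 groups with 3 biological replicates in each, 12 libraries in all. Control cells received the mock pair of a control siRNA and a control GapmeR (SiCt and GapCt). A GapmeR is a short antisense DNA-like oligonucleotide that makes RNase H cut its RNA target. The SG group received the siRNA Si623 together with the GapmeR Gap01, both aimed at one lncRNA, a long RNA without a protein product, according to the series design. Cells of the TNF group got the mock pair and were then exposed for 6 hours to 20 ng/mL of the cytokine tumour necrosis factor alpha (TNF). Those of the TNFSG group got the targeting pair before the same exposure. The siRNA and the GapmeR were always given together, so their effects cannot be told apart.

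Antisense transcripts are a common product of mammalian genomes. Many start at or near the promoter of the sense gene and run away from it, because most promoters fire in both directions, and others start inside or beyond the sense gene and run across its body. Nuclear decay complexes shorten and remove many of them, while some stable ones host small nucleolar RNAs, act on the chromatin of their neighbour or pair with its mRNA. TNF acts in myeloid leukaemia cells mainly through NF-kB, a transcription factor that binds kappaB motifs in promoters and enhancers.

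The positions of 378 of the 382 transcripts were found by symbol in GENCODE release 29 (hg38), and 376 could be set beside their sense gene. Both ends carrying the starts overlapped in 143 pairs, with a median distance between starts of 764 bases. In 73 pairs the transcripts ran apart from each other with no overlap, with a median distance of 123 bases between starts. The 3 prime ends overlapped in 72 pairs, the antisense gene lay inside the sense gene in 61 and it spanned the sense gene in 25. Starts lay within 1000 bases of each other on opposite strands in 155 pairs. The name did not hold everywhere, since TRMT2B-AS1 lies on the same strand as TRMT2B, and RefSeq classes 6 of the 374 transcripts it could be matched to as protein-coding (AATK-AS1, FAM83H-AS1, NCBP2-AS2, SPTY2D1-AS1, TOPORS-AS1 and UBXN10-AS1). The file gives no strand for its reads and no strand-specific library is stated, so where the 2 genes of a pair overlap their reads cannot be told apart.

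Mean levels in the set had a median of 5.58 FPKM, with quartiles at 2.45 and 15.2 FPKM. Above 10 FPKM lay 135 transcripts, above 100 FPKM 18, and under 2 FPKM 73. In 303 transcripts every library was above 0, 79 were listed at 0 in at least 1 library and 22 in at least 6. For 137 symbols more than 1 locus carried the name, up to 19 loci for 1 symbol, so a kept locus may hold only a piece of the transcript.

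A high FPKM could be a small number of reads on a short locus. Read numbers could be recovered for 130 transcripts, because their values stepped in whole multiples of 1 read, and 94 of these averaged under 10 reads per library. Recovery was limited to loci of up to 200 reads in a library. It also required a small read number in the lowest library above 0, so it favours loci with few reads. Of the 39 transcripts above 50 FPKM, reads were recovered for 17, and 15 of those averaged under 10 reads. ADIPOQ-AS1, antisense to the gene of the fat-cell hormone adiponectin, had the third-highest mean of the set at 383.2 FPKM. Its libraries held 7, 3 and 7 reads in control, 1, 15 and 2 in TNF, 5, 3 and 4 in SG, then 7, 6 and 2 in TNFSG. HTR5A-AS1, beside a serotonin receptor gene, averaged 218.3 FPKM from 3.33 reads per library. The coefficient of variation (CV, the SD divided by the mean) within groups had a median of 76.6% over the 78 few-read transcripts that had a value in every group, and 22.5% over the other 279. No CV was computed for 25 transcripts that were listed at 0 in all libraries of a group.

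**Figure D1:**
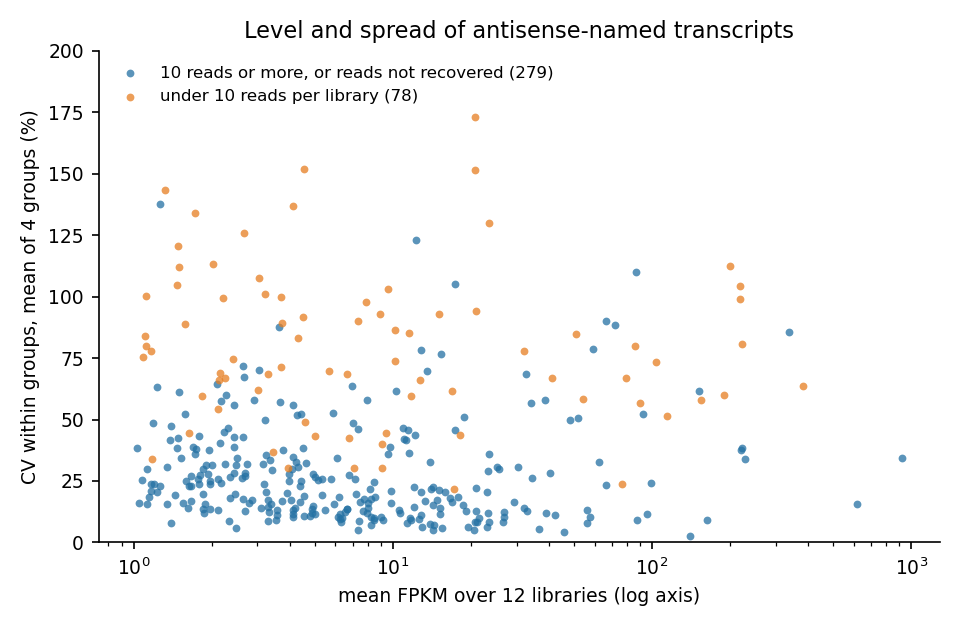
Mean FPKM over 12 libraries (log axis) against the CV within groups in percent, averaged over the 4 groups, with 1 point for each of 357 transcripts. Orange points average under 10 reads per library and lie mostly above the blue points at every level, including the highest ones.

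The 8 highest means belonged to H1FX-AS1 (916.7 FPKM), LRRC75A-AS1 (618.9), ADIPOQ-AS1 (383.2), L3MBTL4-AS1 (336.1), CYP1B1-AS1 (228.1), IPO9-AS1 (223.1), FLG-AS1 (222.2) and TRMT2B-AS1 (221.1). H1FX-AS1, which starts 885 bases from the linker histone gene H1FX on the other strand (chr3:129315392-129326225, hg38), lay between 470.2 and 1869 FPKM. Its control libraries measured 470.2, 473.8 and 938.1 FPKM and its TNF libraries 1319, 731 and 1155 FPKM, so these groups overlapped. L3MBTL4-AS1 swung from 5.68 FPKM in SG replicate 3 to 1425 FPKM in TNF replicate 1. LRRC75A-AS1, which RefSeq lists as the small nucleolar RNA host SNHG29, was steadier, with 501.5 FPKM in its lowest library and 909.7 FPKM in its highest. It overlaps LRRC75A over 37102 bases (chr17:16438822-16478678), and LRRC75A itself was listed at 473.9 FPKM.

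In 104 transcripts the highest library was under 2 times the lowest, and none of them was among the 94 found to average under 10 reads. Read numbers were recovered for only 130 of the 382, so not every steady transcript has one. MIF-AS1, at the gene of the cytokine macrophage migration inhibitory factor, ranged from 127.7 to 156.1 FPKM. PRC1-AS1, inside the gene of a spindle midzone protein, ranged from 139.5 to 188.4 FPKM, RUSC1-AS1 from 50.6 to 63.3 FPKM and FGD5-AS1 from 40 to 52.3 FPKM. In 121 transcripts, by contrast, the highest library was over 10 times the lowest or a library was at 0.

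The libraries themselves differed somewhat in depth, and TNFSG replicate 1 was the deepest. Relative depth, estimated from the read steps, lay between 0.863 in control replicate 3 and 1.321 in TNFSG replicate 1, and read totals are not in the table. ICAM1, a standard NF-kB target, measured 15.1 ± 0.551 FPKM in control, 339.2 ± 13 in TNF, 16 ± 1.71 in SG, then 361.2 ± 33.9 in TNFSG (mean ± SD, n = 3 each). The locus named MIR146A, the best match found for the lncRNA in the series title, measured 25 ± 3.48 FPKM in TNF and 5.44 ± 2.03 in TNFSG, and 0 to 0.569 FPKM in the libraries without TNF. This match rests on the locus name and the title alone. The erythroid markers HBZ, TAL1, GATA1, KLF1 and LMO2 had their lowest library at 34.3 FPKM or above, while the globin genes HBG1 and HBG2 averaged 1.42 and 4.86 FPKM. Of the T and B cell markers, CD3E averaged 0.98 FPKM and CD3D 25.1 FPKM, and their summed level ranged over 18.4 to 44.1 FPKM in control, 18.3 to 53.5 in TNF, 33.4 to 43.5 in SG, then 36.5 to 53 in TNFSG. Of the 5 epithelial markers KRT18 averaged 246.2, KRT8 142.4, EPCAM 58.6, CDH1 4.85 and KRT5 0.913 FPKM. The summed level of 3 fibroblast markers was 23.9 to 56.3 FPKM in control, 55.1 to 1178 in TNF, 21.3 to 45.3 in SG, then 65.2 to 443.8 in TNFSG, and its part in the TNF comparisons was not tested. Among these markers COL1A2 ranged from 0 to 1098 FPKM, DCN from 14.3 to 83.2 and COL1A1 from 0.417 to 9.95. In bulk libraries such as these, fewer cells with a transcript and less of it per cell cannot be told apart.

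TNF against control asked how TNF acted on mock-transfected cells. BOLA3-AS1 fell, and no other antisense-named transcript passed limma's adjusted threshold of 0.05. BOLA3-AS1 measured 7.79, 7 and 7.94 FPKM in control and 5.59, 3.86 and 4.51 FPKM in TNF. Every TNF library lay below every control library, with means of 7.58 ± 0.508 and 4.65 ± 0.876 FPKM. Its change was -0.61 ± 0.12 (log2 of FPKM + 1, SE), with a limma adjusted p of 0.0497. That is 1 lower call among 378 tested transcripts (0.265%), beside 0.277% of all loci called lower, 1.18% called higher and 1.45% called in either direction. At an unadjusted p under 0.05 lay 33 transcripts (8.73%, against 11.2% of all loci), 15 with higher and 18 with lower values. The BOLA3-AS1 call sat at the threshold: dropping each library in turn removed it in 5 of 6 fits, all but the one without TNF replicate 1, and the highest limma adjusted p was 0.174. It also failed when the SG groups were kept out of the model (limma adjusted p 0.311), without the filter on low values (0.0516), with median-ratio scaling (0.0532), without the variance trend (0.0601) and with the replicate number as a block (0.0557).

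BOLA3 encodes a mitochondrial protein needed to insert iron-sulfur clusters into enzymes. BOLA3-AS1 (chr2:74148009-74150061, plus strand, hg38, listed by RefSeq as BOLA3-DT) starts 15 bases from the start of BOLA3 and runs away from it with no overlap. The sense gene kept 112.7, 116.8 and 143.1 FPKM in control and 109.1, 133.9 and 141.3 FPKM in TNF, overlapping groups with a change of 0.04 ± 0.13 and a limma adjusted p of 0.953. The pair was measured at very different levels, 6.27 FPKM for the antisense and over 100 FPKM in every library for the sense. In the SG transfection BOLA3-AS1 measured 6.86, 7.74 and 7.94 FPKM without TNF and 5.34, 5.57 and 5.11 FPKM with TNF. The TNFSG libraries again lay below all of their controls, with a change of -0.42 ± 0.12 that did not pass (limma adjusted p 0.177).

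The promoter windows of the 2 called transcripts and of DLGAP1-AS2 are shown because these had some of the lowest p values with TNF. MMP25-AS1 was not among the 5 of lowest p in either comparison with TNF, and its window is shown for its kappaB match. Whether the windows bear on those values was not tested. Each runs from 250 bases before to 50 bases after the RefSeq start (GRCh38.p14), 5 prime to 3 prime on the strand of the transcript, with matches to the kappaB consensus in capitals. The CCAAT and TATAAA boxes were searched too, on both strands, and none of the 4 windows held either.
BOLA3-AS1 (chr2:74147731-74148030, plus strand): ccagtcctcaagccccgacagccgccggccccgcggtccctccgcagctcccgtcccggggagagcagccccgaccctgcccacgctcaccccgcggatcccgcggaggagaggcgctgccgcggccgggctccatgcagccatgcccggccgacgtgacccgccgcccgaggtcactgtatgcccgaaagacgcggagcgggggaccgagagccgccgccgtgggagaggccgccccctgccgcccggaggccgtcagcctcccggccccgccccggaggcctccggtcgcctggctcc
SPTY2D1-AS1 (chr11:18599539-18599838, plus strand): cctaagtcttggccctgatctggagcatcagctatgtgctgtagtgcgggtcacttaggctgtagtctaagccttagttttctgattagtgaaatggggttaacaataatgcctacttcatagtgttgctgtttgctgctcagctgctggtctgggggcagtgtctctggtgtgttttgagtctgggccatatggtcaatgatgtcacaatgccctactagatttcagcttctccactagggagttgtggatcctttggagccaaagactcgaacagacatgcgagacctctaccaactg
DLGAP1-AS2 (chr18:3603487-3603786, plus strand): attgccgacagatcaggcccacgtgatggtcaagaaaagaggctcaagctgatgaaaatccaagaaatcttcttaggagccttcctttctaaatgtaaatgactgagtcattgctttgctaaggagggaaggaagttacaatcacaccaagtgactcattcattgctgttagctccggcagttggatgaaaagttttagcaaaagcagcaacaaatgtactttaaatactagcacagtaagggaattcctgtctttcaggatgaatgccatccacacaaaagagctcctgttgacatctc
MMP25-AS1 (chr16:3059321-3059620, minus strand): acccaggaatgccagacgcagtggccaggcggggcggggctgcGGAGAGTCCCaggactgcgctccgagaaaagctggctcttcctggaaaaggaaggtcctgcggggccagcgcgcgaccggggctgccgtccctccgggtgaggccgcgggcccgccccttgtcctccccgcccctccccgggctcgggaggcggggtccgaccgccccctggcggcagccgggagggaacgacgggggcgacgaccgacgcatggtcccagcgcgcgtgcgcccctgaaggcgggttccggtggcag
The BOLA3-AS1 window is 79.0% G and C and the MMP25-AS1 window 75.7%, while those of SPTY2D1-AS1 and DLGAP1-AS2 have 48.3% and 42%. Only the MMP25-AS1 window holds a kappaB match. The SPTY2D1-AS1 and DLGAP1-AS2 windows, set at RefSeq starts, lie inside these genes as GENCODE places them. The regions before their GENCODE starts are not shown. RefSeq gave 334 windows for 284 transcripts of the set. A kappaB match lay in 7.19% of them and in 5.91% of all 35116 windows, a CCAAT box in 31.4% and 34.6%, and a TATAAA box in 6.29% and 11.5%. Of the 23 transcripts with a kappaB match, 16 had higher values in TNF than in control and 14 in TNFSG than in SG, 0 passed limma in either comparison, and their median changes were 0.05 and 0.10. In the whole set 194 and 177 of 378 transcripts had positive changes, with medians of 0.010 and -0.022. The lowest p values among the 23 in TNFSG against SG went in opposite directions. MMP25-AS1 had a change of 0.87 and SOX21-AS1 of -1.04 (unadjusted limma p 0.00362 and 0.00364).

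TNFSG against SG asked how TNF acted on cells that had received the targeting pair. SPTY2D1-AS1 rose and no other antisense-named transcript passed. It measured 0.761, 1.27 and 0.612 FPKM in SG and 3.22, 2.72 and 2.9 FPKM in TNFSG, with means of 0.88 ± 0.344 and 2.95 ± 0.25 FPKM. The groups were well apart, and the change was 1.08 ± 0.19 (log2 of FPKM + 1, SE), with a limma adjusted p of 0.0228. This is 1 higher call of 378 (0.265%), beside 1.37% of all loci called higher, 0.277% called lower and 1.64% in either direction. At an unadjusted p under 0.05 lay 38 transcripts (10.1%, against 11.4% of all loci). Dropping each library in turn removed this call in 5 of 6 fits, all but the one without SG replicate 2, and the highest limma adjusted p was 0.105. A model of the SG and TNFSG libraries alone also removed it (limma adjusted p 0.12).

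SPTY2D1-AS1 is one of the protein-coding entries. GENCODE places it at chr11:18588781-18610255 on the plus strand, where it overlaps 3855 bases at the 3 prime end of SPTY2D1, a histone chaperone gene, and RefSeq lists it as MISFA. It averaged 33.3 reads per library, so its level was low but not a matter of a few reads. In the mock transfection it measured 1.44, 0.828 and 1.41 FPKM in control and 3.41, 2.55 and 2.47 FPKM in TNF. These groups did not overlap either, with a change of 0.78 ± 0.19 and a limma adjusted p of 0.107. SPTY2D1 stayed between 6.91 and 8.72 FPKM in all 12 libraries, and its changes with TNF were -0.05 ± 0.11 and -0.12 ± 0.11 (limma adjusted p 0.929 and 0.774).

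**Figure D2:**
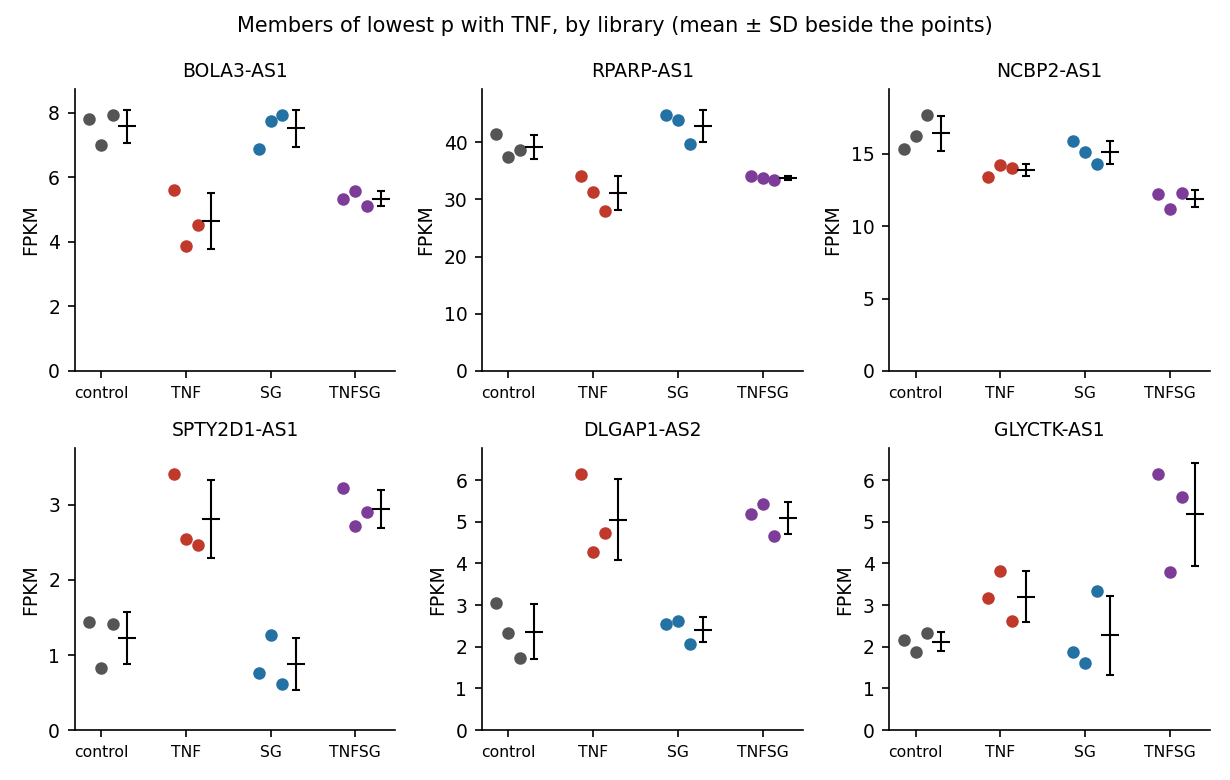
FPKM of 6 transcripts of low p with TNF, with 1 point per library in the control, TNF, SG and TNFSG groups and mean ± SD (n = 3) beside the points. BOLA3-AS1, RPARP-AS1 and NCBP2-AS1 are lower with TNF in both transfections, and SPTY2D1-AS1, DLGAP1-AS2 and GLYCTK-AS1 are higher, with no overlap of the groups compared.

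DLGAP1-AS2 came closest to a call in both comparisons. It lies inside DLGAP1, a gene of a postsynaptic scaffold protein (chr18:3603000-3608336, plus strand). Its libraries held 3.05, 2.33 and 1.72 FPKM in control, 6.15, 4.28 and 4.73 in TNF, 2.55, 2.62 and 2.06 in SG, then 5.18, 5.43 and 4.67 in TNFSG. Every library with TNF was above every library without it. The change was 0.85 ± 0.18 in TNF against control and 0.84 ± 0.18 in TNFSG against SG, with limma adjusted p values of 0.0552 and 0.055. It passed in both when the test was restricted to loci other than those averaging under 10 reads, an alternative added with the data in view. DLGAP1-AS1, a neighbouring transcript inside the same gene, measured 2.24 ± 0.438 FPKM in control, 2.86 ± 0.0481 in TNF, 2.37 ± 0.257 in SG, then 3.34 ± 0.628 in TNFSG. Its groups did not overlap in either comparison with TNF, and its limma adjusted p values were 0.622 and 0.42. DLGAP1 itself was near the lower limit and variable, with 3.24, 1.48 and 0.587 FPKM in control and 7.7, 2.03 and 3.9 in TNF.

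RPARP-AS1 measured 41.4, 37.4 and 38.6 FPKM in control, 34, 31.2 and 28 in TNF, 44.8, 43.9 and 39.7 in SG, then 34, 33.8 and 33.4 in TNFSG. The TNF libraries were the lower ones in each transfection, with changes of -0.33 ± 0.08 in both and limma adjusted p values of 0.107 and 0.0954. NCBP2-AS1 lies inside NCBP2, the gene of a nuclear cap-binding subunit, and measured 15.9, 15.1 and 14.3 FPKM in SG and 12.2, 11.2 and 12.3 in TNFSG (change -0.32 ± 0.08, limma adjusted p 0.0959). NCBP2 measured 25 ± 3.76 FPKM in SG and 27.1 ± 0.602 in TNFSG, groups that overlapped. GLYCTK-AS1, which meets the glycerate kinase gene GLYCTK tail to tail, measured 1.87, 1.6 and 3.35 FPKM in SG and 6.15, 3.79 and 5.6 in TNFSG (change 0.93 ± 0.23, limma adjusted p 0.101). GLYCTK had 3.54, 3.49 and 5.13 FPKM in SG and 6.58, 5.3 and 6.36 in TNFSG, a change of 0.50 ± 0.19 (limma adjusted p 0.344), and 4897 bases are common to the 2 genes.

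FOXC2-AS1 and its sense gene, the forkhead factor gene FOXC2, overlap at their starts over 933 bases and both sat near the limit of detection. FOXC2-AS1 was listed at 0.562, 0 and 0 FPKM in control, 3.85, 3.08 and 1.02 in TNF, 0 in all SG libraries, then 1.63, 2.02 and 0.641 in TNFSG. It averaged 3.67 reads per library. FOXC2 held 1.14, 0.337 and 0.4 FPKM in control, 2.77, 1.85 and 3.79 in TNF, 0.539, 0 and 0 in SG, then 1.58, 1.67 and 1.59 in TNFSG. Both genes of the pair had all TNF-treated libraries above all of their controls, with limma adjusted p values for TNF against control of 0.079 for FOXC2-AS1 and 0.0679 for FOXC2.

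Between TNF and control the groups did not overlap in 26 transcripts with higher values (6.88%, against 7.59% of all loci) and 28 with lower values (7.41% against 8.0%). Between TNFSG and SG there were 24 higher (6.35% against 8.13%) and 34 lower (8.99% against 10.0%). In both comparisons at once, which share no library, the higher transcripts were DLGAP1-AS2, GLYCTK-AS1, THRB-AS1, IL10RB-AS1, DLGAP1-AS1, SPTY2D1-AS1, SSSCA1-AS1 and FOXC2-AS1. These 8 are 2.12% of those tested, beside 3.34% of all loci. Among the 11 lower ones were RPARP-AS1, OIP5-AS1, NCBP2-AS1, LIMD1-AS1, BOLA3-AS1, MFI2-AS1, RAET1E-AS1, ZNF252P-AS1, NAV2-AS2 and NAV2-AS1. The 11 are 2.91%, beside 2.84% of all loci, and 0 lay in opposite directions (0.256% of all loci did). Both shares lay near or below those of all loci.

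Some of these pairs are known beyond their name. OIP5-AS1, a conserved cytoplasmic lncRNA also called cyrano in fish, measured 31.2, 28.5 and 31.6 FPKM in control and 28.1, 21.5 and 23 in TNF, and 28 ± 2.41 in SG against 24 ± 1.11 in TNFSG. Its change with TNF was -0.33 ± 0.10 in mock-transfected cells (limma adjusted p 0.232). IL10RB-AS1, which starts 98 bases from the interleukin 10 receptor gene IL10RB on the other strand, measured 2.11 ± 0.341 FPKM in control, 3.76 ± 0.508 in TNF, 2.22 ± 0.344 in SG, then 3.4 ± 0.828 in TNFSG, with a limma adjusted p of 0.175 for TNF against control. NAV2-AS1 and NAV2-AS2 both lie inside NAV2 and averaged 10.7 and 13.8 reads per library. NAV2-AS1 measured 3.38, 1.81 and 0.94 FPKM in control and 0.725, 0.116 and 0.382 in TNF. The host gene NAV2 swung from 5.81 to 164.5 FPKM, and its libraries measured 70.2, 29.2 and 26.3 FPKM in control and 27.6, 5.81 and 7.27 in TNF, so that the 2 groups overlapped.

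**Figure D3:**
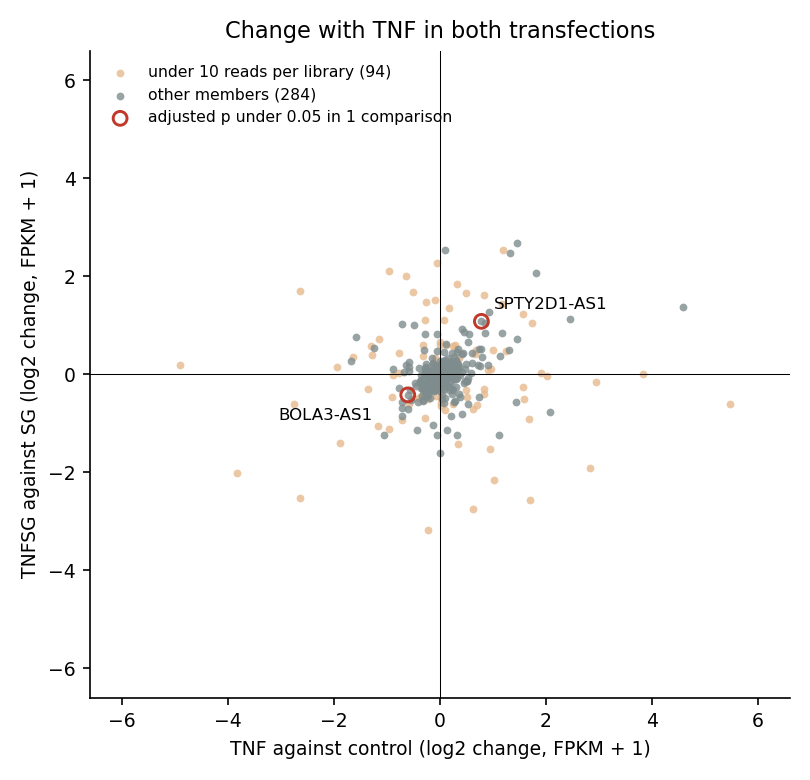
Log2 change (FPKM + 1) in TNF against control on the horizontal axis and in TNFSG against SG on the vertical axis, with 1 point for each of 378 transcripts tested. Circles mark BOLA3-AS1 and SPTY2D1-AS1, and the widest points on either axis are mostly transcripts averaging under 10 reads per library (pale).

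Across the 378 transcripts, which are not independent replicates, the 2 TNF comparisons had a Spearman correlation of 0.19 between their changes, and 220 changes (58.2%) had the same sign. Without the transcripts averaging under 10 reads, 284 remained with a correlation of 0.32 and 62.3% of the same sign. Over all 32866 loci tested the correlation was 0.24 with 63.1% of the same sign, and over the 20488 loci not averaging under 10 reads it was 0.43 with 68.8%. The median change of the set was 0.010 in TNF against control and -0.022 in TNFSG against SG, beside -0.021 and -0.028 over all loci.

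SG against control asked what the targeting pair did without TNF. No antisense-named transcript passed limma, with 37 of 378 at an unadjusted p under 0.05 (9.79%, against 9.86% of all loci). Over all loci 0.170% were called, 0.0548% higher and 0.116% lower. VIM-AS1, ZNRD1-AS1, STX18-AS1, MZF1-AS1 and TMC3-AS1 had the lowest p values. TNFSG against TNF asked the same in TNF-treated cells, and again 0 passed limma, with 37 at an unadjusted p under 0.05 (9.79% against 9.11%) and 0.128% of all loci called, 0.0578% higher and 0.0700% lower. There the lowest p values belonged to VIM-AS1, PAXBP1-AS1, ZSCAN16-AS1, MIF-AS1 and MTUS2-AS2.

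VIM-AS1 is antisense to the start of VIM, the gene of the intermediate filament protein vimentin (chr10:17214239-17229985, minus strand). It measured 8.65, 7.4 and 6.56 FPKM in control and 10.8, 11.7 and 12.6 in SG. With TNF it measured 7.37, 6.4 and 6.11 FPKM in the mock transfection and 9.94, 9.16 and 11 in the targeting one. All 6 libraries with the targeting pair lay above all 6 without it. The changes were 0.58 ± 0.12 without TNF and 0.53 ± 0.12 with TNF, and neither passed (limma adjusted p 0.151 and 0.201). VIM itself averaged 844.9 FPKM, with 906.2 ± 334.9 FPKM in control and 743.9 ± 107.6 in SG, groups that overlapped.

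ZNRD1-AS1, a transcribed pseudogene beside the RNA polymerase I subunit gene ZNRD1, measured 9.57, 10.6 and 11.1 FPKM in control and 14.2, 12.9 and 14.9 in SG, then 13.5, 12.5 and 11.7 in TNF and 14.8, 14.8 and 15.4 in TNFSG. The targeting groups were the higher ones in each case, with changes of 0.40 ± 0.09 and 0.24 ± 0.09 (limma adjusted p 0.17 and 0.444). TMC3-AS1, which spans the channel-like gene TMC3, measured 6.25 ± 0.785 FPKM in control, 9.07 ± 1.4 in SG, 8.14 ± 0.51 in TNF and 10.3 ± 0.311 in TNFSG (limma adjusted p 0.24 and 0.485). SCAMP1-AS1, which starts 76 bases from the secretory carrier gene SCAMP1, measured 4.83, 5.52 and 5.17 FPKM in control, 6.13, 7.64 and 9.17 in SG, 5.21, 5.43 and 4.77 in TNF and 6.94, 7.9 and 7.56 in TNFSG (limma adjusted p 0.271 and 0.309). TMEM44-AS1 measured 3.02 ± 0.234 FPKM in control, 4.54 ± 0.533 in SG, 2.84 ± 0.127 in TNF and 3.81 ± 0.477 in TNFSG, and did not pass either (limma adjusted p 0.265 and 0.496).

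**Figure D4:**
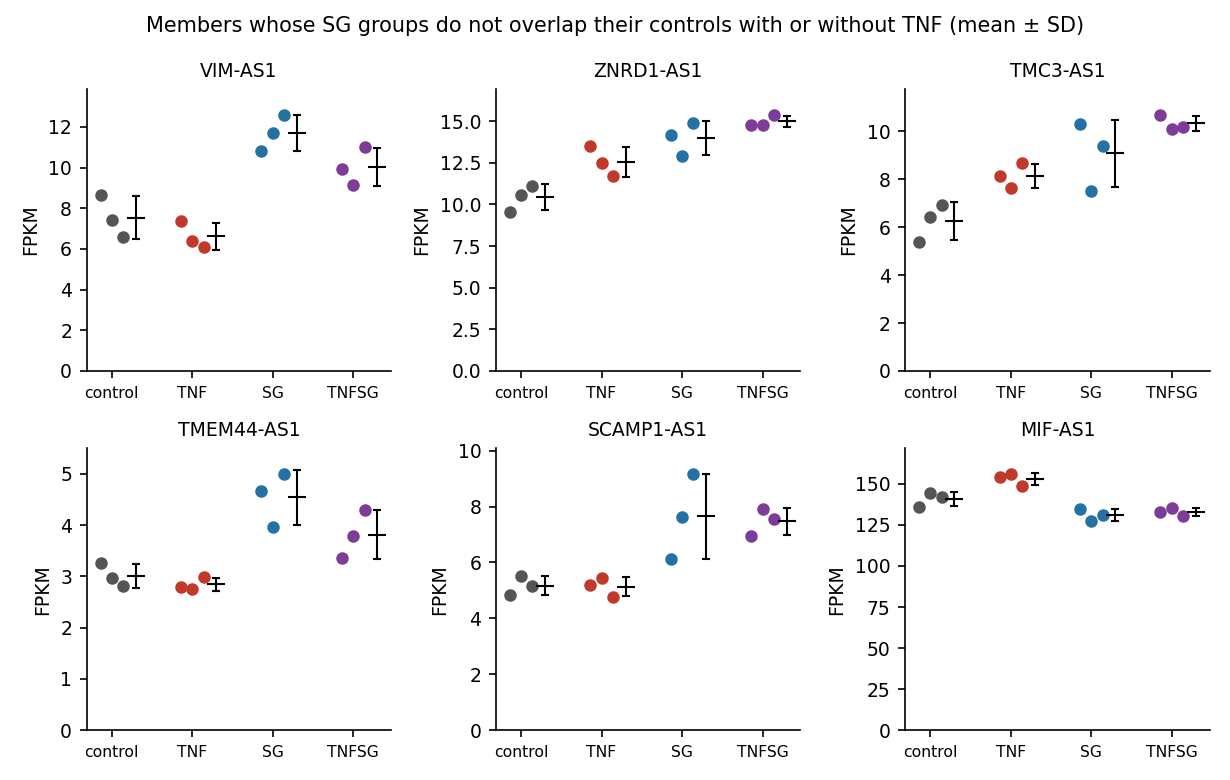
FPKM of 6 transcripts whose groups with the targeting pair do not overlap those with the mock pair, without TNF (control and SG) and with it (TNF and TNFSG), with 1 point per library and mean ± SD (n = 3). The first 5 are higher with the targeting pair and MIF-AS1 is lower, and none passed limma's adjusted threshold.

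More transcripts of the set lay higher than lower with the targeting pair. Between SG and control the groups did not overlap in 50 transcripts with higher values (13.2%, against 10.3% of all loci) and 11 with lower values (2.91% against 4.62%). Between TNFSG and TNF there were 49 higher (13.0% against 10.0%) and 11 lower (2.91% against 4.73%). This split moved with the scale of the libraries. With median-ratio scaling, applied to these counts after seeing the data, there were 39 higher (10.3%, against 7.01% of all loci) and 17 lower (4.50% against 7.43%) without TNF, and 33 higher (8.73% against 7.31%) and 15 lower (3.97% against 7.13%) with TNF.

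The median change of the set was 0.162 in SG against control and 0.141 in TNFSG against TNF, beside 0.085 and 0.081 over all loci. With median-ratio scaling the medians of the set were 0.096 and 0.083 and those of all loci 0.019 and 0.025. Quantile normalization moved the median of all loci by over 0.1, to -0.026 and -0.029, and that of the set to 0.033 and 0.014. In each of these 3 scalings the set lay above all loci, while the number of transcripts with a positive change without TNF went from 256 of 378 to 224 and to 200. Members of the set share libraries and their scale, so this difference was not tested.

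In both SG comparisons at once, which share no library, 15 transcripts were higher with no overlap (3.97%, against 2.82% of all loci). They were TMEM147-AS1, ZNRD1-AS1, PSMD5-AS1, VIM-AS1, TMC3-AS1, RNF144A-AS1, NNT-AS1, SCAMP1-AS1, TMEM44-AS1, ST7-AS1, AFAP1-AS1, RAET1E-AS1, MYLK-AS1, CEBPB-AS1 and C10orf71-AS1. These 15 were counted without median-ratio scaling, which lowered the number of higher transcripts in each SG comparison alone. The counts over both comparisons, higher and lower, were not repeated with that scaling, so some names may depend on the scale. Lower in both were MIF-AS1 and FGD5-AS1 (0.529%, against 1.50% of all loci), and 0 lay in opposite directions (0.249% of all loci). MIF-AS1 measured 136.1, 144.7 and 141.9 FPKM in control against 134.5, 127.7 and 130.9 in SG, and 154.1, 156.1 and 148.8 in TNF against 132.9, 135.3 and 130.5 in TNFSG. Its highest library was 1.22 times its lowest, the smallest such ratio among the transcripts above 100 FPKM, and its changes were -0.10 ± 0.05 and -0.20 ± 0.05 (limma adjusted p 0.553 and 0.258). FGD5-AS1, a widely expressed lncRNA, measured 49.8 ± 3.32 FPKM in control, 41.9 ± 1.86 in SG, 49 ± 1.56 in TNF and 42.8 ± 1.11 in TNFSG (limma adjusted p 0.252 and 0.411). Across the 378 transcripts the changes in the 2 SG comparisons had a Spearman correlation of 0.22, beside 0.20 over all loci, and 66.7% had the same sign, beside 63.1%. Without loci averaging under 10 reads the order of the correlations turned, with 0.28 in the set and 0.38 over all loci, and 69.4% and 68.5% had the same sign.

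MTUS2-AS2, from 2.33 reads per library, measured 4.15, 6.38 and 1.92 FPKM in TNF and 0, 0 and 1.21 in TNFSG (change -1.88 ± 0.50, limma adjusted p 0.267). PAXBP1-AS1 and STX18-AS1 had larger but less even differences than the steadier transcripts above. PAXBP1-AS1, at the gene of a binding partner of PAX3 and PAX7, measured 4.37, 0.708 and 2.66 FPKM in TNF and 9.66, 19.7 and 13.4 in TNFSG, a change of 2.19 ± 0.51 (limma adjusted p 0.214). Its sense gene PAXBP1 measured 39.6 ± 6.14 FPKM in TNF and 38.8 ± 3.62 in TNFSG, groups that overlapped. STX18-AS1, which starts 215 bases from the syntaxin gene STX18, measured 5.71, 5.99 and 3.3 FPKM in control and 12.5, 19 and 39.7 in SG, a change of 1.92 ± 0.45 (limma adjusted p 0.202). The SG libraries were all above control but spread from 12.5 to 39.7 FPKM, while STX18 measured 17.9 ± 1.8 FPKM in control and 17.5 ± 1.54 in SG.

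The interaction of TNF and SG asked whether TNF acted differently in the 2 transfections. It called 0 of 378 transcripts by limma, beside 0.00913% of all loci (0.00304% positive and 0.00609% negative), and 9 reached an unadjusted p under 0.05 (2.38%, against 3.75% of all loci). The 3 of lowest p were ZSCAN16-AS1, PTGES2-AS1 and RFX3-AS1. ZSCAN16-AS1, which spans a zinc finger gene, measured 53.4, 50.5 and 64.1 FPKM in control, 42.3, 36 and 59.5 in TNF, 55.4, 45.8 and 51.2 in SG, then 76.1, 70.6 and 70 in TNFSG. Its TNFSG libraries were the highest of all 12, and the interaction was 0.81 ± 0.24 with an unadjusted p of 0.00688 and a limma adjusted p of 1. PTGES2-AS1, which starts 67 bases from a prostaglandin E synthase gene, measured 2.43 ± 0.563 FPKM in control, 3.4 ± 0.537 in TNF, 4.44 ± 0.421 in SG, then 2.98 ± 0.601 in TNFSG, with an interaction of -0.83 ± 0.25 (limma adjusted p 1). RFX3-AS1 averaged 1.42 reads per library.

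A set of 9 transcripts was listed at 0 in all libraries of 1 group and above 0 in all of another. SLC7A11-AS1, at the gene of the cystine transporter, was listed at 19.1, 10.2 and 12.1 FPKM in control, 0 in all TNF libraries, 11.9, 11.5 and 28.8 in SG and 71.4, 0 and 0 in TNFSG. It averaged 1.5 reads per library, and SLC7A11 stayed between 3.73 and 5.78 FPKM. RFX3-AS1 was above 0 in all control libraries and in TNFSG replicate 1 alone, and MZF1-AS1 measured 6.35, 22.6 and 8.06 FPKM in control and 4.14, 2.55 or 0 FPKM elsewhere, from 1.58 reads per library. NRSN2-AS1 was at 0 in all SG libraries, then TLR8-AS1 in all TNF libraries, with 3.33 and 2.58 reads per library. CEBPB-AS1 and CEBPA-AS1, beside 2 transcription factor genes of myeloid cells, were at 0 in all control libraries and measured 0.887, 0.856 and 7.14 FPKM and 2.14, 0.517 and 1.73 FPKM in SG, from 2.08 and 2.5 reads per library. GAS6-AS2 was at 0 in all control libraries and measured 1.15, 4.72 and 2.51 FPKM in TNF and 6.27, 4.38 and 27.3 in TNFSG, and its read number was not recovered. FOXC2-AS1 is described above. At such read numbers a listing at 0 cannot be told from a low level, and none of the 9 passed limma in any of the 5 tests.

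The sense gene was measured on a locus of its own for 319 of the 382 transcripts. The antisense was listed above the sense in 106 pairs, above 10 times the sense in 18 and below 0.1 of it in 53, with a median ratio of 0.507. In 20 of the 106 the antisense averaged under 10 reads per library. The sense genes had a median of 13.2 FPKM. CBR3-AS1 (92 FPKM), which spans the carbonyl reductase gene CBR3 (0.73 FPKM), and LEMD1-AS1 (154.3 FPKM beside 1.33 FPKM, but from 2.92 reads per library) had the highest ratios. At the other end lay GAS5-AS1 at 1.03 FPKM beside GAS5, a small nucleolar RNA host, at 526.1 FPKM, and SLC25A5-AS1 at 1.73 FPKM beside the ADP/ATP carrier gene SLC25A5 at 565.4 FPKM. These pairs were named after their values were seen.

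Levels of the 2 partners were only loosely related. Over 319 pairs the Spearman correlation of mean FPKM was 0.12, over the 137 pairs with starts within 1000 bases it was 0.31 and over the 179 other located pairs it was 0.07. Without antisense transcripts averaging under 10 reads, 253 pairs gave 0.20. Pairs that share a start or overlap can also share reads. Sense genes of the divergent pairs without overlap had a median of 13.7 FPKM and their antisense partners 3.99 FPKM. Where the 5 prime ends overlapped the medians were 19.1 and 6.23 FPKM, and where the 3 prime ends overlapped 7.89 and 6.84 FPKM.

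**Figure D5:**
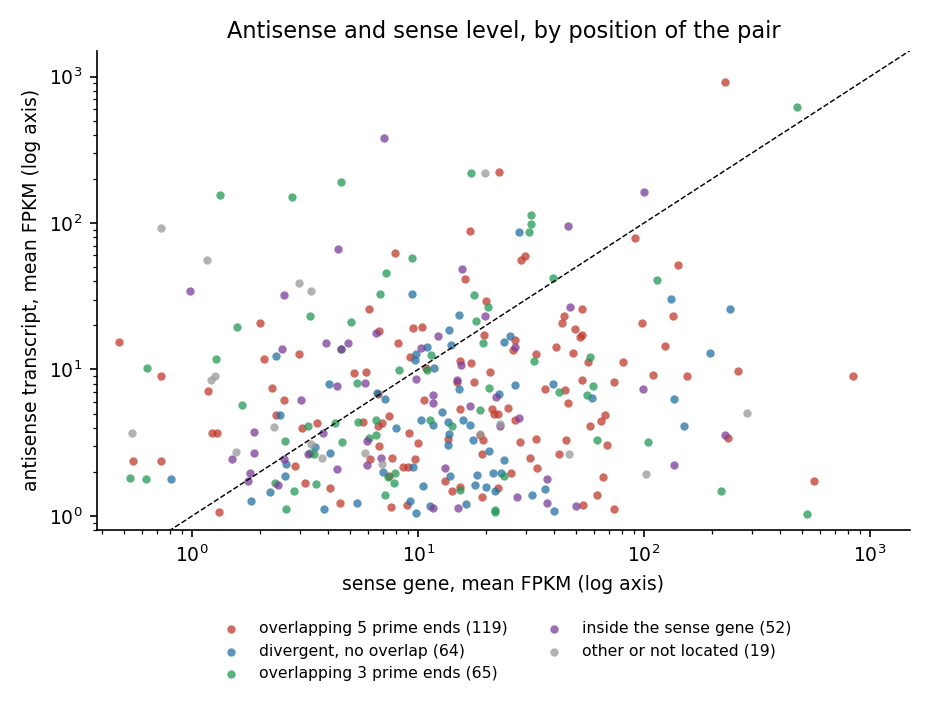
Mean FPKM of the sense gene (horizontal, log axis) against that of its antisense transcript (vertical, log axis) for 319 pairs, coloured by the position of the pair in GENCODE release 29, with equal levels on the dashed line. The cut at 1 FPKM on the vertical axis is the limit that chose the set, and 106 pairs lie above the line.

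The changes of antisense and sense were compared over the 307 tested pairs, as a description. With TNF the Spearman correlation was 0.19 in mock-transfected and 0.22 in targeted cells, and 57.7% of pairs had changes of the same sign in each. With the targeting pair it was -0.01 without TNF and 0.00 with TNF, with 54.7% and 49.5% of the same sign. Pairs with starts within 1000 bases gave 0.21 and 0.22 with TNF, close to the values of 0.19 and 0.23 over the other located pairs. Without antisense transcripts averaging under 10 reads, 242 pairs gave 0.26 and 0.22 with TNF. For the targeting pair they gave 0.04 without TNF and 0.05 with TNF.

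Few sense genes passed limma, and the antisense partners of those that did were not called. In TNF against control URB1, a gene of ribosome biogenesis, fell from 15.2 ± 1.61 to 10.1 ± 1.25 FPKM (change -0.55 ± 0.11, limma adjusted p 0.0437). URB1-AS1, which starts 104 bases away on the other strand, measured 3.76, 5.74 and 5.45 FPKM in control and 4.57, 4 and 5.5 in TNF, overlapping groups with a change of -0.06 ± 0.25. In TNFSG against SG the deubiquitinase gene USP2 rose from 11.8 ± 0.246 to 17.4 ± 0.968 FPKM (0.52 ± 0.09, limma adjusted p 0.0182), and USP2-AS1, which starts 52 bases away, measured 17.7, 18.4 and 10.1 FPKM in SG and 19.2, 17.4 and 13.2 in TNFSG. APOBEC3B, a cytidine deaminase gene, rose from 25.6 ± 3.86 to 39.1 ± 1.37 FPKM (0.60 ± 0.10, limma adjusted p 0.0192). APOBEC3B-AS1 was listed at 243.8, 47 and 58.9 FPKM in SG and 129.5, 93.6 and 111.2 in TNFSG, from 5.42 reads per library. The ubiquitin ligase gene RNF144A fell from 17.5 ± 0.988 to 12.6 ± 0.404 FPKM (-0.43 ± 0.08, limma adjusted p 0.0326), while RNF144A-AS1 measured 9.71 ± 1.56 and 8.44 ± 0.62 FPKM in groups that overlapped. The calls in TNFSG against SG are 2 higher and 1 lower of 307 sense genes (0.651% and 0.326%, against 1.37% and 0.277% of all loci), and the call with TNF alone is 1 lower (0.326%, against 0.277%). By contrast, 0 sense genes passed limma for the targeting pair without TNF, for the targeting pair with TNF or in the interaction, where 43, 35 and 7 had an unadjusted p under 0.05 (14%, 11.4% and 2.28%, against 9.86%, 9.11% and 3.75% of all loci).

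Transcripts grouped by their sense gene gave 0 calls by limma in each of the 5 tests, in groups that were chosen with earlier results known. The immune, blood-cell and RNA processing groups came from lists of genes. The other groups came from the first letters of the sense symbol. In both kinds of group the members need not share the function that names the group. The blood-cell list, for example, holds STX18-AS1, at a syntaxin gene. The immune and TNF-related group had 11 members, with median changes of 0.25 in TNF against control and 0.11 in TNFSG against SG, beside -0.02 and -0.03 over all loci. These medians are the values of CEBPB-AS1 (0.25 ± 0.63) and CEBPA-AS1 (0.11 ± 0.64), few-read transcripts listed at 0 in all control libraries. CEBPB-AS1 was listed at 0.695, 0 and 0 FPKM in TNF. In the same group IL10RB-AS1 had an unadjusted p of 0.00657 with TNF, and SOCS2-AS1 stayed between 6.57 and 10.1 FPKM. MAP3K14-AS1, at the gene of the NF-kB inducing kinase, measured 2.77 ± 1.1 FPKM in control and 3.37 ± 1.38 in TNF. The list drawn up for blood-cell and HOX loci had 5 measured members, GATA2-AS1, KLF3-AS1, MAFG-AS1, EPB41L4A-AS1 and STX18-AS1, and none of these is at a HOX gene. GATA2-AS1, beside the gene of a transcription factor of blood stem cells, measured 19.3 ± 1.89 FPKM in control, 19.4 ± 0.955 in TNF, 21.1 ± 0.909 in SG, then 22.7 ± 0.249 in TNFSG. The groups of RNA processing (17), zinc finger (16), ubiquitin and proteasome (20) and mitochondrial, transport and metabolic genes (21) had medians between -0.01 and 0.11 in TNF against control and between 0.17 and 0.30 in SG against control, beside -0.02 and 0.08 over all loci. MMP25-AS1, at the gene of a membrane metalloproteinase of leukocytes, measured 2.86 ± 0.788 FPKM in SG and 6 ± 1.07 in TNFSG, with no overlap (change 0.87 ± 0.23, limma adjusted p 0.122), and 2.8 ± 0.761 and 4.25 ± 1.16 FPKM in control and TNF.

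The machinery that removes antisense transcripts, nuclear RNA decay and Integrator genes, was measured at 33 of 43 genes, and 0 passed limma in any of the 5 tests. At an unadjusted p under 0.05 lay 7 and 2 of them for TNF in mock-transfected and in targeted cells, all with lower values. These were 21.2% and 6.06%, against 11.2% and 11.4% of all loci. For the targeting pair without and with TNF there were 2 and 3 (6.06% and 9.09%, against 9.86% and 9.11%), and for the interaction 1 (3.03% against 3.75%). Among proteins that bind, edit or sense paired RNA, 19 of 24 were measured. With TNF 2 passed in mock-transfected cells (10.5%, against 1.18% of all loci called higher) and 4 in targeted cells (21.1% against 1.37%). In TNF against control IFIH1, a cytosolic sensor of long double-stranded RNA, rose from 0.248 ± 0.113 to 2.53 ± 1.01 FPKM (limma adjusted p 0.00855) and OAS3, a synthetase that activates RNase L, from 0.905 ± 0.0296 to 5.78 ± 1.47 FPKM (0.000584). In TNFSG against SG these 2 rose again, with EIF2AK2, the kinase PKR, from 12 ± 0.672 to 17.8 ± 0.276 FPKM (0.00976) and DDX58, the sensor RIG-I, from 1.31 ± 0.12 to 3.53 ± 0.807 FPKM (limma adjusted p 0.045). The editing enzyme ADAR measured 50.6 ± 6.43 FPKM in control and 70.7 ± 9.11 in TNF without passing (limma adjusted p 0.0783). No gene of this list passed in the 2 SG comparisons by limma, where 4 and 6 had an unadjusted p under 0.05 (21.1% and 31.6%, against 9.86% and 9.11% of all loci). Among 9 transcripts named for an intronic or overlapping position (-IT or -OT), 0 passed limma in any test. At an unadjusted p under 0.05 lay 1 and 3 in the 2 SG comparisons (11.1% and 33.3%, against 9.86% and 9.11% of all loci) and 0 in the other 3 tests.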

How the data were processed

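RNA of 12 K562 libraries was sequenced as single reads on a HiSeq instrument, per the labels' protocols. The authors deposited 1 table of FPKM values per locus, and the submitters' processing notes name Bowtie2 2.2.9, TopHat2 2.0.14, Cufflinks and hg38. The annotation release, strand setting and read totals are absent from those notes and labels. The 32866 of 38272 loci that reached 1 FPKM in 3 or more of the 12 libraries were tested on log2(FPKM + 1), which understates the change of low genes, with limma 3.58.1 (R 4.3.3, empirical Bayes with a trend). All 4 groups entered 1 fit, and p-values were adjusted by Benjamini-Hochberg over all loci tested, with a threshold of 0.05. Of the 382 transcripts 378 were tested. The 4 others (DLEU7-AS1, HIPK1-AS1, PKN2-AS1 and STXBP5-AS1) did not pass the filter. Whole reads were recovered from the steps of the FPKM values for 21297 of 37046 loci (57.5%, tolerance 0.03 reads), so no count test was run and depth is known only as a ratio between libraries. The text names called transcripts, the 5 of lowest p in each comparison (3 in the interaction), the 8 of highest mean, those whose sense gene was called, those at 0 in all libraries of 1 group and above 0 in all of another, their sense genes, and 3 on each side of the 1 FPKM limit. Other examples, and the transcripts without overlap, were named after their values were seen. The members and lists were chosen with earlier results of these data known. Positions came from GENCODE release 29 and promoters from RefSeq (GRCh38.p14). The limma fit was tested on simulated data for TNF against control. It recovered 36% of changes of 1 log2 unit and 56% of changes of 2, and 6.12% of its calls were false. A transcript that did not pass may therefore still have changed. Alternatives changed the replicate block, pseudocount, filter, scaling, variance trend, groups in the fit and each replicate.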

Additional observations from a re-analysis of the deposited data

How the results depend on the processing

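The count of called transcripts was small and moved with the settings. In TNF against control 1 was called, and 4 with the replicate block (DLGAP1-AS2, FOXC2-AS1, MED4-AS1 and RPARP-AS1), 0 with no filter on low values, 0 with median-ratio scaling, 0 with no trend, 3 with loci averaging under 10 reads left out (BOLA3-AS1, DLGAP1-AS2 and SPTY2D1-AS1) and 0 to 2 when a replicate was left out. With only the groups compared the count in TNF against control was again 1, but the transcript was SLC7A11-AS1. Without TNF replicate 2 it was HTR5A-AS1, and without control replicate 1 it was DLGAP1-AS2. In TNFSG against SG 1 was called, and 3 with the replicate block (DLGAP1-AS2, RPARP-AS1 and SPTY2D1-AS1), 2 with quantile normalization, 0 with only the groups compared, 3 with loci averaging under 10 reads left out (DLGAP1-AS2, GLYCTK-AS1 and SPTY2D1-AS1) and 0 to 3 when a replicate was left out. Where that count stayed at 1, the transcript could differ from SPTY2D1-AS1. It was NCBP2-AS1 with the filter at 5 FPKM and GLYCTK-AS1 without SG replicate 3. Without TNFSG replicate 1 it was SLC7A11-AS1, and without TNFSG replicate 2 it was THRB-AS1. In TNFSG against TNF the counts without a replicate were 0 to 1, the call being HTR5A-AS1 without TNF replicate 2. SG against control and the interaction gave 0 under each setting run. The replicate numbers paired the libraries only weakly. Same-numbered libraries had correlations of 0.007 to 0.138 between their deviations, 1 of 18 over 0.1, and differently numbered ones -0.093 to 0.043. Of the 12 libraries, 7 correlated best with their own number. Changes that turned sign were those of URB1-AS1 with TNF (-0.22 to 0.03 when a replicate was left out, and 0.03 both without control replicate 2 and without TNF replicate 2), USP2-AS1 in TNFSG against SG (-0.13 to 0.28, the lowest without SG replicate 3) and APOBEC3B-AS1 in TNFSG against SG (-0.12 to 1.06, the lowest without SG replicate 2). The lower transcripts without overlap between SG and control went from 11 to 17 with median-ratio scaling, and the median change of the set in TNFSG against SG turned to 0.004. Read numbers limit the 94 transcripts that average under 10 reads. The settings left the causes of these shifts untested.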
